A study of Mus musculus with 10 samples.

Results

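Ion channels and neurotransmitter receptors were read by 107 of the 13057 probe sets that were no controls. These probe sets stand for 96 genes, and 50 of the probe sets were on chip A and the other 57 on chip B. The members are the probe sets whose platform annotation gives a single gene with a symbol that starts with Kcn, Cacn, Clcn, Gabr, Chrn, Glra or Glrb, Adra or Adrb, P2rx or P2ry, or with Scn, Gria, Grid, Grik, Grin, Grm, Chrm, Htr or Drd and a digit, a rule that uses no measured value. Total RNA came from adult female C57BL/6 mice, with no treatment or transgene named in the labels. The tissues were hypothalamus, liver, pancreas, muscle and white adipose, each hybridised to 1 array of each chip. The labels do not say how many animals gave the RNA, and the adipose arrays carry a title that speaks of a preconfluent state, so they are called the adipose-labelled sample. With 1 array per tissue and chip there were no replicates: no value below has an error between animals, no test across samples was possible, and precision is limited by how few arrays there were. In whole tissue, fewer cells of a type and less message per cell cannot be told apart.

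Voltage-gated channels open when the membrane potential changes and shape the action potential, while receptors of the ligand-gated kind open a pore, and those coupled to G proteins start a signal inside the cell, when a transmitter binds. Neurons carry the broadest set of them. In skeletal muscle the nicotinic acetylcholine receptor answers the motor nerve and an L-type calcium channel senses the depolarisation that releases calcium for contraction. In the pancreas, muscarinic receptors drive secretion by acinar cells, and a potassium channel closed by ATP couples glucose to insulin release in beta cells.

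Intensities were deposited as linear values, many of them below 0. The spread of these negative values gives a noise bound for each array, the size of its 1st percentile, and a probe set is called above noise where its intensity exceeds that bound. On chip A the bound was 258 for hypothalamus, 295 for liver, 390.1 for the adipose-labelled sample, 1065 for muscle and 1166 for pancreas. On chip B it was 649.5, 792, 918, 1639.5 and 2608 in the same order, so a message of a given intensity could be read in hypothalamus and missed in pancreas or muscle. The tissues could be told by markers of their main cells. All 12 probe sets of muscle fibre genes were selective for muscle, all 7 of acinar genes for pancreas, all 7 of white adipocyte genes for the adipose-labelled sample, 7 of 11 of hepatocyte genes for liver and 9 of 13 of neuron genes for hypothalamus, where a set is selective if it reaches 4 times the next tissue after low intensities are raised to a floor (175 for chip A, 123 for chip B).

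With the noise bound at the 1st percentile, most channel and receptor messages were not read in any tissue. This held for 85 of the 107 probe sets (79.4%), against 57.2% of all probe sets and 46.5% of the 7542 that name a single gene. The share depends on the bound and on the probe sets taken. With a bound at the 5th percentile it was 49 members (45.8%, against 37.9% of all). Probe sets of relaxed design may bind related messages. Without them, and with scaling, floor and bound computed anew on the rest, it was 28 of 38 members (73.7%, against 70.4%). Of the 535 intensities of the members, 36 lay above the bound of their array, and 2 lay as far below 0. Intensities below 0 made up 33.6% of the members in pancreas (32.4% of all probe sets), 35.5% in muscle (31.8%), 36.4% in liver (26.0%), 20.6% in hypothalamus (23.7%) and 39.3% in the adipose-labelled sample (24.5%), and 7 members (6.54%, against 8.43%) were below 0 in all 5 tissues. The solute carriers, the other large class of membrane transport genes, were read more often, with 36.2% of their 141 probe sets above noise in no tissue.

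**Figure D1:**
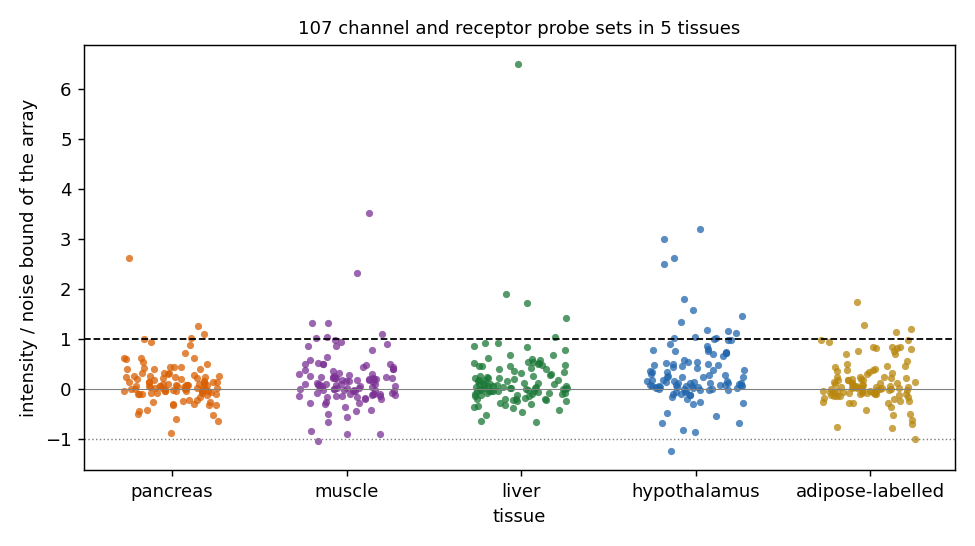
Intensity of each of the 107 probe sets divided by the noise bound of its array (vertical axis, no unit) in the 5 tissues (horizontal axis), 1 point per probe set. Points above the dashed line at 1 are above noise, 36 in all, and 2 points lie below the dotted line at -1.

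Hypothalamus had the most readable members. There 15 of 107 (14%) were above noise, against 31.0% of all probe sets. In muscle 7 were (6.54%, against 13.9%), in pancreas 5 (4.67%, against 11.9%), in liver 5 (4.67%, against 25.7%) and in the adipose-labelled sample 4 (3.74%, against 24.8%). In each of the 5 tissues the members' share was below that of all probe sets, but without probe sets of relaxed design it was not in hypothalamus, at 8 of 38 (21.1%, against 19.9%). With the bound at the 5th percentile hypothalamus had 41 (38.3%, against 47.6%) and the other tissues between 20 and 28. The order of the tissues changed with the scaling: quantile normalization, which gives each chip a common bound, left 12 members above noise in muscle (11.2%), 8 in pancreas (7.48%), 4 in hypothalamus (3.74%), 3 in liver (2.8%) and 1 in the adipose-labelled sample (0.935%), against 18.6% of all probe sets in each.

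**Figure D2:**
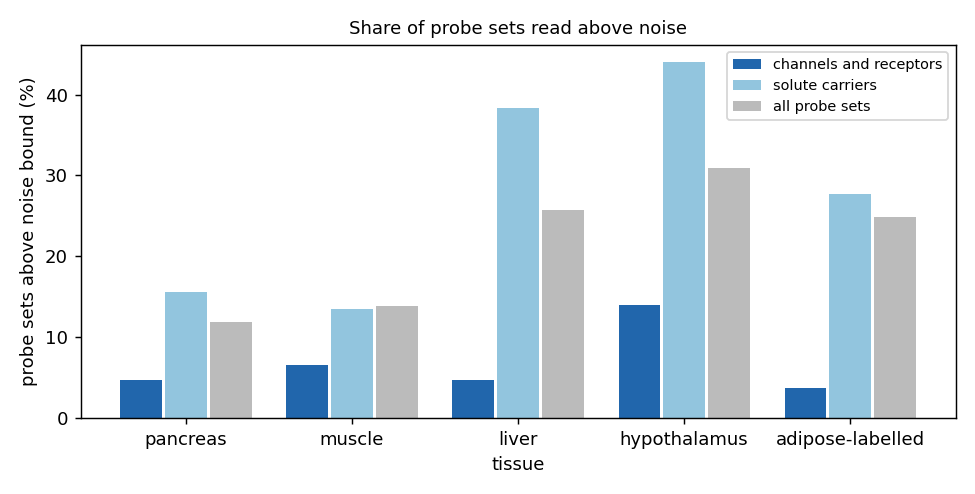
Percentage of probe sets above the noise bound (vertical axis) in each tissue (horizontal axis) for channels and receptors, solute carriers and all probe sets, with no error bars since there was 1 array per tissue and chip. Channels and receptors have the lowest bar in each tissue, with their highest, 14%, in hypothalamus.

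In sum, members were selective for a tissue about as often as all probe sets. Selective probe sets numbered 8 for pancreas (7.48%, against 3.58% of all probe sets), 3 for muscle (2.80%, against 1.85%), 2 for hypothalamus (1.87%, against 1.98%), and none for liver (2.12% of all) or for the adipose-labelled sample (0.911% of all), in sum 13 (12.1%, against 10.4%). Selective and above noise were 7 of them (6.54%, against 7.66% of all), none in liver (2.04% of all) or the adipose-labelled sample (0.835% of all): Chrm1, P2rx1 and Htr1b in pancreas (2.80%, against 1.66%), Cacna1s and Chrng in muscle (1.87%, against 1.27%), and Gria2 and Scn1a in hypothalamus (1.87%, against 1.85%). The hypothalamus share was near the background here, but not under every setting. Selective for hypothalamus were 13 (12.1%, against 4.05%) with a floor of 1, and 9 (8.41%, against 5.25%) with a 2-fold rule. Without probe sets of relaxed design they were 4 of 38 (10.5%, against 1.78%). That setting also computes scaling, floor and bound anew, so it changes more than the probe sets counted. For 5 of the 7, all but Chrm1 and Cacna1s, the intensity was within 1.2 times the bound of its own array. Log2 intensity minus the mean of the other 4 tissues was taken after low intensities were raised to the floor. Its median over the members was 0 in pancreas and muscle, -0.11 in hypothalamus, -0.27 in liver and -0.28 in the adipose-labelled sample. Over all probe sets it was 0, 0, -0.0070, -0.098 and 0. Many intensities lie at the floor, so a median of 0 does not show equal messages.

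Of the 22 probe sets above noise somewhere, 11 were so in hypothalamus alone (10.3% of the 107, against 7.48% of all probe sets), 3 in muscle alone (2.80%, against 1.18%), 2 in pancreas alone (1.87%, against 1.38%), none in liver alone (3.35% of all) or the adipose-labelled sample alone (2.11% of all), 5 in 3 tissues and 1 in all 5. Among the 11, 8 also had their highest intensity in hypothalamus: Glrb, Grik5, Gria2, Kcnd2, Kcnh2, Kcnab1, Kcnab2 and Scn1a. All 8 intensities lie under the bounds of the pancreas and muscle arrays of their chip, so hypothalamus is not shown to exceed those tissues. Those of Gria2, Scn1a and Kcnab1 also lie under the bounds of liver and the adipose-labelled sample. Those of Kcnd2 and Kcnab2 lie under the bound of the adipose-labelled sample, so no excess over these tissues is shown either. Glrb, Grik5 and Kcnh2 exceed the bounds of both liver and the adipose-labelled sample. The other 3, Drd4, P2ry2 and Grid1, read higher in pancreas or muscle, under the bounds of those arrays. Beside these values, the 13 probe sets of neuron markers summed to 67646 in hypothalamus and to between 759 and 3477 in the other tissues. The 14 of astrocytes and oligodendrocytes summed to 16121 there and to between 326 and 4963 elsewhere. The part of cell makeup in the members' values was not tested.

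Glrb encodes the beta subunit of the glycine receptor, which anchors that chloride channel at inhibitory synapses. Its intensity was 828 in hypothalamus, 236 in muscle, 101 in pancreas, 78.4 in the adipose-labelled sample and 22.9 in liver. Hypothalamus stood alone above noise, at 3.21 times its bound, and its ratio of 3.51 after the floor is just outside the selective rule. That ratio is taken over a muscle value under the muscle bound, which itself exceeds 828, and with each floor at the noise bound the log2 difference was -0.4951, so the fold to muscle is not known. Against liver and the adipose-labelled sample alone, the tissues with bounds nearest to that of hypothalamus, Glrb was at least 2.12-fold higher.

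Among ionotropic glutamate receptors, which carry fast excitation, 3 of 11 probe sets were above noise, all in hypothalamus. Of all probe sets, 31.0% were above noise in hypothalamus and 42.8% in at least 1 tissue. Gria2, the AMPA receptor subunit that limits calcium entry, has a pair of probe sets on chip B. One read 664 in hypothalamus, -230.4 in liver, -554 in the adipose-labelled sample, -707 in muscle and -1642 in pancreas. The other read 436 in hypothalamus, -3.99 in liver, -81.3 in the adipose-labelled sample, -191 in muscle and -229 in pancreas. By both sets hypothalamus was the sole tissue with a value above 0, but the brighter lay at 1.02 times the bound and the dimmer below it. Grik5, a kainate receptor subunit, read 645 in hypothalamus, 530.2 in muscle, 139.7 in liver, 131 in pancreas and 97.5 in the adipose-labelled sample. The muscle value is under the muscle bound, so these tissues are not ordered, while hypothalamus was at least 1.65-fold above liver and the adipose-labelled sample. Grid1, a delta receptor, read between 736 and 1498 with little contrast, and the NMDA receptor genes Grin2a, Grin2b, Grin2c and Grin2d were not above noise in any tissue. Grin2b was below 0 on all 5 arrays.

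Of 35 probe sets for 31 potassium channel genes, 6 were above noise, and each of them was so in hypothalamus, where the bounds were lowest. The share of all probe sets was larger, at 31.0% above noise in hypothalamus and 42.8% in at least 1 tissue. Kcnd2, an A-type channel that delays firing, read 379 in hypothalamus, 9.04 in the adipose-labelled sample, 0.998 in liver, -33.0 in pancreas and -42.1 in muscle. Kcnh2, the ERG channel of repolarisation, read 467 in hypothalamus, 63.1 in muscle, 36.9 in liver, 21.1 in the adipose-labelled sample and -90.1 in pancreas. Neither was read outside hypothalamus, and Kcnh2 was at least 1.2-fold above liver and the adipose-labelled sample. Kcnab2 and Kcnab1 encode beta subunits that bind the channel from the cytosol. Kcnab2 read 301 in hypothalamus and between -532 and -93.8 elsewhere. Kcnab1 read 650.2 in hypothalamus, at the bound of 649.5, and 288 in muscle, 123 in the adipose-labelled sample, 27.9 in liver and -275 in pancreas. The third beta subunit gene, Kcnab3, was below noise in every tissue, with its highest value, 865, in pancreas.

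Kcnj11 is the pore of the potassium channel closed by ATP. By one of its probe sets it read 1919.7 in liver, 1171 in pancreas, 1060.3 in muscle, 325 in the adipose-labelled sample and 305 in hypothalamus. Liver was 1.64-fold above pancreas, where the value was just over the bound of 1166, and at least 4.92-fold above hypothalamus and the adipose-labelled sample. The other Kcnj11 probe set, on the same chip, read 239 in muscle, 31.0 in pancreas, -186 in liver, -272 in the adipose-labelled sample and -317 in hypothalamus, and so shows no liver signal. Of 14 probe sets of islet genes, 1, of Ins2, was selective for pancreas and above noise, 5, of Scg2, Sst, Chgb and Chga, for hypothalamus, and 2, of Slc2a2, for liver. Their part was not tested. Kcnn1, a small-conductance channel opened by calcium, was the member above noise in all 5 tissues (0.935% of the members, against 5.86% of all probe sets), at 3811 in muscle, 3311 in pancreas, 1707 in hypothalamus, 1598 in the adipose-labelled sample and 1510.0 in liver. Its probe set is of relaxed design, as are 69 of the 107. The other 29 potassium channel probe sets were above noise nowhere. They include Kcnc1, a fast channel selective for muscle at 817 but at 0.498 of the bound, Kcnj8 at 368 in the adipose-labelled sample, under its bound of 390.1, and Kcna1, at most 92.4.

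Of 7 sodium channel probe sets 1 was above noise, and of 5 chloride channel probe sets also 1. Of all probe sets, 42.8% were above noise in at least 1 tissue. Scn1a, a sodium channel of the brain that carries the rising phase of the action potential, read 670.0 in hypothalamus by the chip B set, with 113 in muscle, 47.2 in the adipose-labelled sample, 34.9 in liver and -83.2 in pancreas. It met the selective rule, with a ratio of 5.47 that the floor sets, and lay at 1.03 times the bound. No lower limit of a fold can be given, since 670.0 is under the bounds of the other 4 arrays, and with each floor at the noise bound the log2 difference was -1.9608. The chip A set of Scn1a was below 0 in all 5 tissues, so it does not show the difference. Scn3a, Scn7a, Scn8a, Scn9a and Scn10a were not above noise, and Scn7a came nearest, at 333 in the adipose-labelled sample. Clcn4, a chloride and proton exchanger of endosomes, read 774 in hypothalamus, 472 in the adipose-labelled sample and 423 in liver, all above noise, and 924 in muscle and 160.1 in pancreas, under their bounds. Hypothalamus was 1.64-fold above the adipose-labelled sample. The second Clcn4 set, on chip B, had the same order of these 3 tissues, 504, 421 and 386, below noise throughout. Clcn3, Clcn6 and Clcn7 were not above noise; Clcn6 was selective for pancreas at 1094, under its bound.

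Promoters are shown for 4 of the 8 genes whose highest intensity was in hypothalamus and for the muscle gene Cacna1s, to set their sequences side by side. They run from 250 bases before to 50 after the start of the gene, on the gene's strand, from RefSeq on GRCm38.p6, where 75 of the 96 genes matched an entry (100 promoters). The letters in capitals are matches, on either strand, to any of 4 motifs: the core of the RE1 element, bound by the repressor REST that silences neuronal genes in other cells, the E-box CAGCTG bound by myogenic factors, the GC box GGGCGG, and the TATA box TATAAA. The RE1 core was chosen after the Gria2 promoter had been seen. Gria2 lies at chr3:80802786-80803085 (minus strand), Glrb at chr3:80913611-80913910 (minus), Kcnd2 at chr6:21215096-21215395 (plus), Kcnh2 at chr5:24329542-24329841 (minus) and Cacna1s at chr1:136052561-136052860 (plus).
Gria2: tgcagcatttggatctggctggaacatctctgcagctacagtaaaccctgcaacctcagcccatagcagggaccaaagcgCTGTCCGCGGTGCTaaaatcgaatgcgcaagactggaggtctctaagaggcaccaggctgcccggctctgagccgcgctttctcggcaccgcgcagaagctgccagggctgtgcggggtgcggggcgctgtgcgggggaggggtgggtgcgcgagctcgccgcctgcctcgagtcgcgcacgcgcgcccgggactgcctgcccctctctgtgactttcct
Glrb: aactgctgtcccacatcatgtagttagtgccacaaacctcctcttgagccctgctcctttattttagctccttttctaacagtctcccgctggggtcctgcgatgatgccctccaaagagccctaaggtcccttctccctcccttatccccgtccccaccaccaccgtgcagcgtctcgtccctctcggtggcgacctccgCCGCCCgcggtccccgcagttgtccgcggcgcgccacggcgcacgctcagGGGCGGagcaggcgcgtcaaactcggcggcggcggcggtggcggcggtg
Kcnd2: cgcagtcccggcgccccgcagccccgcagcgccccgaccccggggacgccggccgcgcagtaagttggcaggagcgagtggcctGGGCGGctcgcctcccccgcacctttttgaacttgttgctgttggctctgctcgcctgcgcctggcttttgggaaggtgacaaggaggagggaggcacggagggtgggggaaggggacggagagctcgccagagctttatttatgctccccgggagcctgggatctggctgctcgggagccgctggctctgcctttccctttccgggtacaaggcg
Kcnh2: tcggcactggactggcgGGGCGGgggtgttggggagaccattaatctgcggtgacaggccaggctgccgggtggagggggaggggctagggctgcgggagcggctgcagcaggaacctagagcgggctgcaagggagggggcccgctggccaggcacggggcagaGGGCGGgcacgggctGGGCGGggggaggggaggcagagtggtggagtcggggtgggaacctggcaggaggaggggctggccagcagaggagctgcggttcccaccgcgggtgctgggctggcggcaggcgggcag
Cacna1s: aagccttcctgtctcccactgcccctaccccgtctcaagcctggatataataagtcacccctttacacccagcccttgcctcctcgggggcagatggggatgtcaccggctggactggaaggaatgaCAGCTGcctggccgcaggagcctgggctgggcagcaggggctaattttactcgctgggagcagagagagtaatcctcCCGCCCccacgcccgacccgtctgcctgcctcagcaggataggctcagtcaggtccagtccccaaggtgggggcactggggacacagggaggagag
The RE1 core was found in 1 of the 100 member promoters, that of Gria2, with its first base 170 bases before the start, and in 17 of 32851 promoters in the table (0.0517%). The E-box was found in 22 of the 100 (22%, against 16.3% of all), among them Cacna1s, 123 bases before the start, and in none of the 15 promoters of the genes above noise in hypothalamus alone. The GC box was in 48 (48%, against 35.7%) and TATAAA in 7 (7%, against 13.6%). These matches describe the letters and are no sign of binding. The median GC content was 62.7% for the 15 promoters, 58.7% for the 100 and 52.7% for all.

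In muscle, Cacna1s was the clearest member. It encodes the L-type calcium channel that senses voltage for contraction, and read 3748 in muscle, 355 in pancreas, 60.3 in the adipose-labelled sample, 21.9 in hypothalamus and -9.98 in liver. Muscle was at least 3.21-fold above the other tissues, a fold limited by the pancreas bound of 1166. The calcium release channel Ryr1, which Cacna1s opens, was likewise high in muscle. The other 7 calcium channel probe sets, of Cacna1a, Cacna1b, Cacna1c, Cacna1d, Cacna1e, Cacna2d1 and Cacnb2, were above noise in no tissue. So were 57.2% of all probe sets. The accessory subunit Cacna2d1 read 389.8 in muscle and at most 90.1 elsewhere, under the bound of 1065. Cacnb2 met the 4-fold rule for pancreas at 616, under the bound of 2608.

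The nicotinic receptor of the muscle end plate is built from alpha, beta, delta and, before innervation, gamma subunits, the last replaced by epsilon in the adult. Chrng, the gamma subunit, read 1689 in muscle by one probe set, with 52.1 in pancreas, 10.9 in hypothalamus, -108 in the adipose-labelled sample and -279 in liver. This is selective for muscle but only 1.03 times the bound, and the remaining pair of Chrng sets was not above noise: one read 2299 in pancreas and 1433 in muscle, the other at most 201. Chrne, the epsilon subunit, was below 0 in muscle by both of its sets, at -448 and -1466. Chrna1, Chrnb1 and Chrnd, the alpha, beta and delta subunits, read at most 467, 357 and -157 in muscle, under the bounds. Chrna7, an alpha subunit of neurons and immune cells, was above noise in muscle alone, at 1413, with 517 in pancreas, 334 in the adipose-labelled sample, 254 in liver and 195 in hypothalamus, which is at least 1.21-fold higher. Schwann and nerve markers (4 probe sets) summed to 3110 in muscle, between 708 in liver and 5704 in the adipose-labelled sample, and their part was not tested.

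Of the receptors coupled to G proteins, Chrm1 was the brightest against its bound, at 2.62 times. Chrm1, a muscarinic receptor, read 6841 in pancreas, 1702 in muscle, 1053 in the adipose-labelled sample, 644 in hypothalamus and 423 in liver. Pancreas was 4.02-fold above muscle, the smallest ratio of the selective members. Chrm1 was not selective with 75th percentile scaling, nor without the probe sets of relaxed design. Its own set is not of that design, and scaling and floor were computed anew there. Hypothalamus, at 644, was just under its bound of 649.5. Chrm4, the other muscarinic gene measured, read at most 255.

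Htr1b, a serotonin receptor that inhibits transmitter release, read 2697 in pancreas, 283 in liver, 185 in the adipose-labelled sample, 124 in hypothalamus and -31.1 in muscle. Pancreas was at least 1.65-fold higher, at 1.03 times its bound. Of the 10 other serotonin receptor probe sets, Htr5a alone was above noise, in muscle (1806), liver (1365) and the adipose-labelled sample (1184), with 1888 in pancreas and 643 in hypothalamus. Among all probe sets, 42.8% were above noise in at least 1 tissue. Htr2c, a receptor of brain and choroid plexus, read 155 in hypothalamus, where a signal under 649.5 would not be seen. Among dopamine receptors, Drd2 read 2187 in muscle, 821 in liver, 745 in the adipose-labelled sample, 683 in hypothalamus and 681 in pancreas, and Drd4 1028 in hypothalamus and 1621 in pancreas, the latter under its bound. Drd2 was above noise in muscle, liver and hypothalamus. Its muscle value was 2.66 times that of liver, but lay under the pancreas bound.

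P2rx1, an ATP-gated cation channel of smooth muscle and platelets, read 2896 in pancreas, 187 in liver, 74.3 in muscle, -11.0 in the adipose-labelled sample and -167 in hypothalamus. Pancreas was at least 1.77-fold higher and 1.11 times its bound. P2ry2, a receptor for nucleotides, read 345 in hypothalamus, above noise, and 1003 in muscle, 387 in the adipose-labelled sample, 250.4 in liver and 82.1 in pancreas, each under its bound. P2ry1 read at most 17.9. The sole adrenergic member, Adra2c, met the 4-fold rule for pancreas at 619, at 0.237 of the bound.

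GABA receptors, the main inhibitory receptors of the brain, were not readable. None of 9 probe sets, for Gabra2, Gabra3, Gabra6, Gabrb1, Gabrb2, Gabrd, Gabrg3, Gabrr1 and Gabrr2, was above noise in any tissue. In hypothalamus they lay between 10.9 and 204, under bounds of 258 and 649.5, while Gad1, which makes GABA, read 8252 there. The sole metabotropic glutamate receptor, Grm8, read between 143 and 323, below noise. Of 33 textbook channel and receptor genes with a probe set, 22 were above noise in no tissue (66.7% of genes, beside 79.4% of member probe sets, 57.2% of all and 46.5% of those with a single gene).

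**Figure D3:**
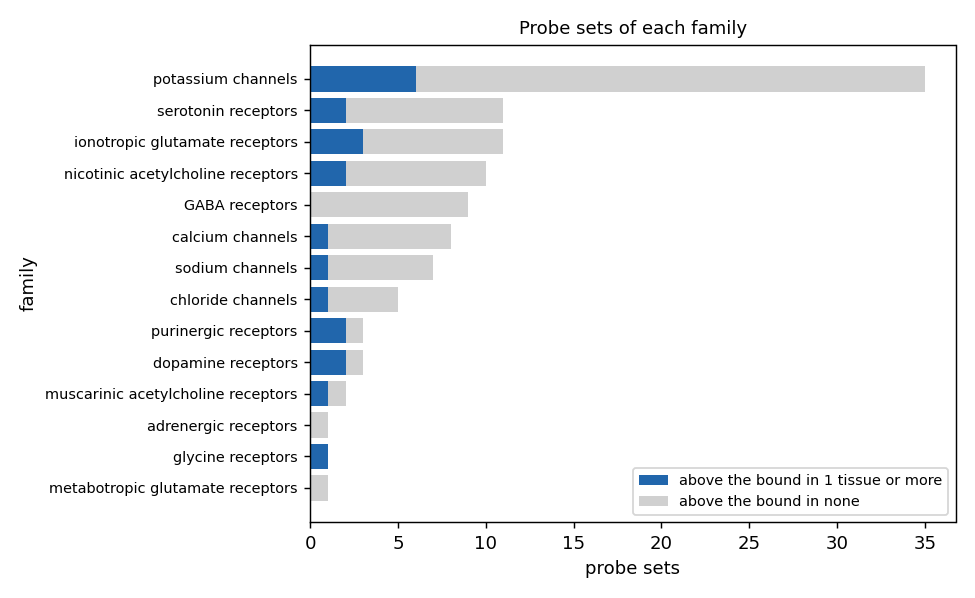
Number of probe sets (horizontal axis) in each of the 14 families (vertical axis), split into those above the noise bound in 1 tissue or more (blue) and in none (grey). Potassium channels are the largest family, with 6 of 35 above noise, and none of the 9 GABA receptor probe sets is.

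Several probe sets read 10 of the genes, and for none of these genes did more than 1 set pass the noise bound, so the highest tissue of most sets is not a measured order. Of the 10 genes with several sets (21 in all), 3, Gria2, Kcnj12 and Kcnj6, had their highest intensity in the same tissue by every set. For 5, Chrng, Clcn4, Gria2, Kcnj11 and Scn1a, 1 set was above noise and the rest were not. For the other 5 no set was.

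**Figure D4:**
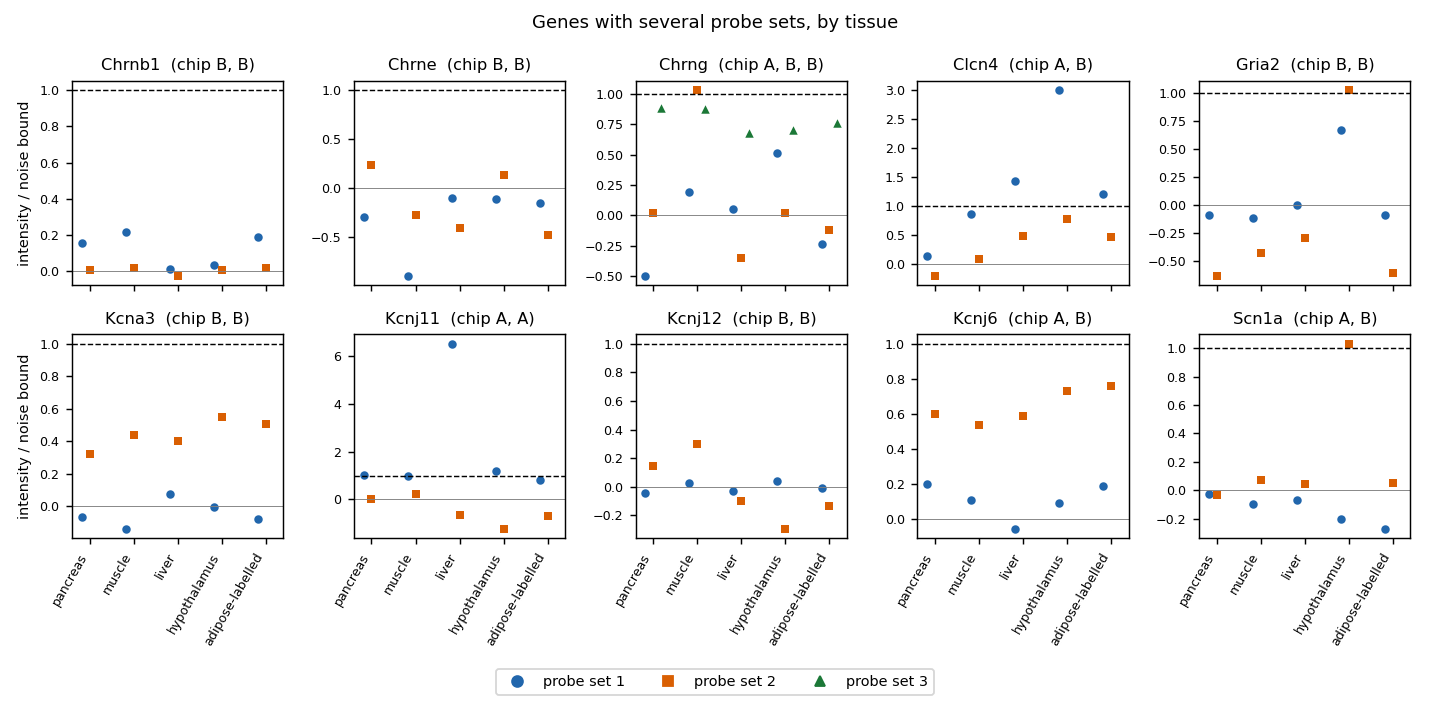
Intensity divided by the noise bound of the array (vertical axis, no unit, scale differs between panels) by tissue (horizontal axis) for the 10 genes with several probe sets, which are told apart by marker. The dashed line at 1 is the noise bound, and for Gria2 both sets peak in hypothalamus while for Kcnj11 and Scn1a 1 set alone shows a peak.

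When liver, hypothalamus and the adipose-labelled sample were compared without the noisier arrays of pancreas and muscle, 6 probe sets were selective for hypothalamus (5.61%, against 3.28% of all): Glrb, Grik5, Kcnab1, Scn1a and both sets of Gria2. All but the dimmer Gria2 set were above noise (4.67%, against 3.01%). The hypothalamus values of Kcnab1, Scn1a and both Gria2 sets lie under the liver (792) and adipose-labelled (918) bounds of chip B. No lower limit of a fold can be given for these sets. The floor was taken from the tissues compared and was lower than before. For the dimmer Gria2 set, below 0 in every other tissue, that lower floor alone raised the ratio from 3.56 to 4.39. The ratio of 4.05 for Grik5 rests on the lower floor too. Liver (139.7) and the adipose-labelled sample (97.5) were under the floor, and 645 in hypothalamus does not reach 4 times the earlier floor of 175. Kcnj11 was selective for liver (0.935%, against 2.98%) and above noise there (2.73% of all were), and no member was selective for the adipose-labelled sample (2.43% of all, 2.05% above noise).

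Genes that work beside the channels and receptors were above noise somewhere in 42.9% to 62.5% of the probe sets of each list, beside 42.8% of all probe sets and 53.5% of those with a single gene. Selective and above noise were 1.66% of all probe sets for pancreas, 1.27% for muscle, 2.04% for liver and 1.85% for hypothalamus, and the lists are too short to set small counts against these. Of 35 probe sets of 28 other channel genes, 19 were above noise somewhere (54.3%) and 5 selective and above noise: 2 for muscle, 2 for hypothalamus and 1 for liver. Ryr1 read 22240 in muscle, at least 8.53-fold above the rest, Vdac1, the pore of the outer mitochondrial membrane, was 4.12-fold above hypothalamus in muscle by one set, while its other set read 5813 in muscle and 3672 in hypothalamus and was not selective, and the connexin Gjb6 was at least 1.23-fold higher in hypothalamus by 1 of its 2 sets. Of 14 probe sets of 8 ion pump genes, 6 were above noise somewhere (42.9%), 2 were selective for muscle and 1 for pancreas. They are the calcium pumps Atp2a1, at least 48.4-fold higher in muscle, Atp2a2, 5.04-fold above hypothalamus in muscle, and Atp2a3, at least 4.51-fold higher in pancreas by 1 of 3 sets, with the others not above noise. Among 19 probe sets of 16 genes of transmitter synthesis, uptake and breakdown, 11 were above noise somewhere (57.9%), 3 were selective for hypothalamus and 2 for liver. Gad1 was at least 3.16-fold higher in hypothalamus, and the vesicular GABA transporter Slc32a1 at least 2.48-fold and 1.06-fold by its 2 sets. The GABA transporter Slc6a13 read 3539 in liver, at least 3.03-fold higher. Of 24 probe sets of 20 scaffold genes, 15 were above noise somewhere (62.5%) and 2 were selective, both for hypothalamus: Camk2b, a kinase of the postsynaptic density (at least 1.56-fold), and Cnih2, a partner of AMPA receptors (at least 1.5-fold by 1 of its 2 sets).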

How the data were processed

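Intensities of 5 tissues of C57BL/6 mice were measured on 10 Affymetrix arrays with biotin-labelled cRNA from 10 µg of total RNA, by the maker's manual of 2001, per the labels' protocols. The deposited intensities are whole numbers that already share a common level, as their 2% trimmed means ran from 500.8 to 501.5 over the arrays; the software is not given in the labels. Groups came from titles or, for adipose, the source label.

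Controls (61 per chip, with 6 yeast probe sets among them) were left out, and each array was scaled to the common 2% trimmed mean of its chip. The floor (median of array medians), the 4-fold rule and the noise bound are defined with the results. Where probe sets of relaxed design were left out, scaling, floor and bound were computed anew on the rest. Where arrays were left out, the floor was taken from the arrays kept. Folds divide the top intensity by the next tissue's value or noise bound, whichever is larger over the others, and are lower limits where a bound was used; ratios under 1 are not given. The comparison without pancreas and muscle was added after the data were seen. Gene names came from the platform annotation, and all 96 member symbols match the GRCm38.p6 table. Named genes are the members that were selective and above noise, 2 per family with the largest ratio to the bound, a list of textbook genes, the members next to the 4-fold threshold, and up to 3 selective genes of each related list. Further members were named where needed to account for a family, after their values were seen. Members and lists were chosen with earlier results of these data known. The calling step was tested on simulated data with rises planted only in brighter probe sets. That test does not cover members of low intensity. Python 3.11.15, numpy 2.4.6 and pandas 2.3.3 were used.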

Additional observations from a re-analysis of the deposited data

How the results depend on the processing

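Of the alternative values of the counts and list medians, 135 stayed and 73 moved. A count stayed within 1.5 times the value given, a median within its 95% interval over the member probe sets, taken as independent. Some of the 135 could not change. Counts above noise are fixed under other floors, the 2-fold rule, fewer arrays and rescaling of whole arrays. Medians are fixed under the 2-fold rule and the 5th percentile bound, and selective counts under that bound. The tally is thus no measure of stability. No paired analysis was possible because each group has 1 array and the groups share a single replicate number. Selective counts are given first, then those above noise, with the share of all probe sets that were selective, or above noise, in brackets after "all". With 75th percentile scaling 3 members were selective for pancreas (all 2.27%) and the liver median was -0.1391. Quantile normalization left 4 selective for pancreas (all 2.67%) and 4 for hypothalamus (all 2.11%), 1 of the latter above noise, with 8, 12, 3, 4 and 1 members above noise in pancreas, muscle, liver, hypothalamus and adipose (all 18.6% each). A floor at the 75th percentile left 3 selective for pancreas (all 1.47%), 1 for muscle (1 above noise; all 1.06%) and 0 for hypothalamus (0 above noise; all 0.965%), with medians of 0.0 in liver, hypothalamus and adipose. A floor at each array's noise bound left 1 for pancreas (1 above noise; all 0.697%) and 0 for muscle and hypothalamus (0 above noise; all 0.751% and 0.36%), with medians of 1.4669, 0.6381, -0.712, -1.0317 and -0.5081 in pancreas, muscle, liver, hypothalamus and adipose. There the log2 difference to the next tissue turned to -0.6272 for Chrng, -1.9608 for Scn1a and -1.9736 for Gria2, since the floor of a noisier array then exceeds their value. A floor of 1 gave 11 for muscle (all 5.12%), 13 for hypothalamus (5 above noise; all 4.05%) and 1 each for liver and adipose (all 3.83% and 2.48%), with medians of 0.5486, 0.6586, -0.8147, 0.0 and -0.5537. The 2-fold rule gave 17 for pancreas (all 10.7%), 13 for muscle (4 above noise; all 6.9%), 2 for liver (all 3.88%) and 9 for hypothalamus (6 above noise; all 5.25%). Without probe sets of relaxed design, so with 38 members of 3141 probe sets, 4 were selective for pancreas (0 above noise; all 3.47%), 1 for muscle (1 above noise; all 2.01%), 1 for liver (all 1.66%) and 4 for hypothalamus (all 1.78%). Above noise in the 5 tissues were 2, 3, 2, 8 and 2 (all 8.72%, 9.11%, 16.1%, 19.9% and 12.9%), and the muscle median was -0.0929. A noise bound at the 5th percentile put 20, 23, 28, 41 and 24 above noise (all 25.4%, 29.5%, 43.5%, 47.6% and 43.5%). Without the pancreas arrays 5 were selective for muscle (all 3.15%), with medians of -0.127 in liver, 0.0 in hypothalamus and -0.0487 in adipose. Without the pancreas and muscle arrays, added after the data were seen, 6 were selective for hypothalamus (5 above noise) and 1 for liver (1 above noise), against 3.28% and 2.98% of all, with medians of 0.0 in liver, hypothalamus and adipose. Unless stated above, the cause was not tested. The 2-fold rule, the floor of 1 and the lower noise bound can only loosen a call. Leaving out arrays removes a comparison and also lowered the floor, which is then taken from the arrays kept. Under the rest, calls were lost for Chrm1 with 75th percentile scaling and for Scn1a and Gria2 with quantile normalization. The floor at the 75th percentile lost Chrng, Scn1a and Gria2, and the floor at the noise bound every selective member above noise but Chrm1. Without probe sets of relaxed design, the selective sets of Cacna1s, P2rx1 and Gria2 are left out, and calls were lost for Chrm1 and Htr1b. The sets of Chrm1 and Htr1b are not of relaxed design and stayed in. With scaling and floor computed anew, their log2 differences fell from 2.0073 to 1.4765 (Chrm1) and from 3.2513 to 1.9342 (Htr1b).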
